A study of Mus musculus with 8 samples.

Results

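The regions described here were 917 peaks of the transcription factor Ets1 that had been called at gene start sites in M1 polarised mouse macrophages and that shared no base with any peak called in M2 polarised macrophages. A peak was a member when it did not overlap an M2 peak by 1 bp and its summit lay within 1000 bp of the start of a gene in the deposited expression table. The members were 3.97% of the 23089 peaks of the M1 list and 11.1% of its 8240 peaks at start sites. The M2 list held 22640 peaks. The starts of 1004 of the 23346 genes in the table lay at a member peak.

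Bone marrow cells had been taken from 8-week-old male mice and grown for 7 days in medium with 10 ng/ml M-CSF and 10% serum, which leaves bone marrow-derived macrophages. Ets1 chromatin immunoprecipitation sequencing (ChIP-seq) was done on 1 library of M1 and 1 of M2 polarised macrophages from wild type C57 mice, and the polarising agents are not given in the labels. RNA sequencing was done on 3 libraries of control macrophages (Ets1 f/f) and 3 of knockout macrophages (Ets1 f/f * Lyz2-cre), for which the labels name no polarisation. The peak lists hold no RNA, so the M1 and M2 labels could not be checked against marker genes. Both RNA groups carried the floxed Ets1 allele, and only the knockouts carried Cre, which the Lyz2 locus drives in myeloid cells. The labels do not say whether libraries came from separate mice, so the p-values measure the spread between libraries, which may be technical.

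Ets1 is the founding member of the ETS family, whose proteins bind DNA through a winged helix-turn-helix domain that recognises a GGAA core. Many housekeeping promoters with CpG-rich sequence hold such sites, and several ETS proteins can occupy the same site. M1, or classically activated, macrophages are known for interferon-induced and inflammatory genes, and M2, or alternatively activated, macrophages for genes of tissue repair.

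The sequences at the strongest member peaks, and at 1 gene that rose and 1 that fell in knockouts, are shown first because the results below return to them. Each covers the window's centre and 50 bases on each side, from the RefSeq promoter sequence of build GRCm38.p6 (the mm10 assembly), read 5′ to 3′ on the strand of the named gene. Capitals mark CGGAA, the form of the ETS core that was searched, or its reverse complement TTCCG. The windows were centred on the summit except at Dvl2, where the centre lay 33 bp before the summit in genome coordinates, and at Mfsd8, where it lay 37 bp after it.
Dvl2 (chr11:70000541-70000641, + strand): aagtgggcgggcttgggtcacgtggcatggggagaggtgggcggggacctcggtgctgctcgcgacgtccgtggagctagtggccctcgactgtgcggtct
Ptprs (chr17:56476467-56476567, - strand): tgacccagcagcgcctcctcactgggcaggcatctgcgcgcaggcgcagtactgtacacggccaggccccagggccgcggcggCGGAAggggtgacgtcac
Oasl1 (chr5:114923186-114923286, + strand): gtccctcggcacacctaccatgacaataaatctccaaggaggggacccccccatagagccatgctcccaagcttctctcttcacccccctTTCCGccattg
Mfsd8 (chr3:40846805-40846905, - strand): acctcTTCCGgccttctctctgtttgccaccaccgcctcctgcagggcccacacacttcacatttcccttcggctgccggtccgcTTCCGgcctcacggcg
Gm14548 (chr7:3898159-3898259, - strand): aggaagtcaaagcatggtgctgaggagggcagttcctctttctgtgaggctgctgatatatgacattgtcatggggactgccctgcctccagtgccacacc
2810001G20Rik (chr11:64079370-64079470, + strand): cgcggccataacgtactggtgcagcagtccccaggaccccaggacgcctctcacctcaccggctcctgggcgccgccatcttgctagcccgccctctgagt
The Ptprs and Oasl1 windows each held 1 CGGAA and the Mfsd8 window held 2. The windows at Dvl2, Gm14548 and 2810001G20Rik held no CGGAA, although the Gm14548 window held the shorter GGAA at 2 places, counting both strands. Windows at S100a4, which rose, and Dtx1, which fell, are not shown and held no CGGAA either. Sequence could not be read at Igf2bp3, Myrf and AC124681.1 among the largest rises. The same held for Prss34, Gucy1b1, Gm15433, Sfrp2 and Nr2f1 among the largest falls.

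The summit with 50 bases on each side could be read in full for 173 of the 917 members. This needs a summit between a RefSeq start and 200 bases upstream of it, so members with a downstream summit, the larger group, are mostly not covered. Of these, 44 (25.4%) held CGGAA on either strand. The same share was 27.4% (795 of 2897 windows) at M1 start-site peaks that shared bases with M2 and 23.4% (69 of 295) at M2-only start-site peaks. Windows of the same length around the start site held it in 15.7% of all 32851 RefSeq promoters. The longer sequence CCGGAAGT, which contains the core, was present in only 5 of the 173 member windows (2.89%). It was in 3.45% of the windows at shared peaks, 3.39% of those at M2-only peaks and 2.46% of all promoters. Member windows were GC-rich, with a median of 67.3% G and C against 55.4% over all promoters. Within the members, the 44 peaks with a core had a median −log10 q of 4.39 and the 129 without had 4.65. Such matches describe letters in a window. All 3 peak classes were richer in GC than all promoters, with medians of 67.3%, 65.3% and 63.4%, and its part in their higher shares was not tested.

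Member peaks were weak and narrow beside the other peaks at start sites. These traits are bound up with the rule, since a weak or narrow peak is less likely to share a base with an M2 peak. The strength used here is the −log10 q deposited for each peak, where q is the caller's p-value corrected over the genome. It ran from 1.31 to 29.0 over the members, with a median of 3.68 and quartiles of 2.68 and 5.35. The 7323 M1 start-site peaks that shared bases with an M2 peak had a median of 12.1 and quartiles of 6.65 and 22.6. The fold enrichment over background at the summit had a median of 4.70 in members and 8.05 in shared peaks. Members had a median width of 247 bp and shared peaks one of 527 bp. In strength, members resembled the 7435 M1-only peaks away from start sites, which had a median −log10 q of 3.32. The 1199 M2-only peaks at start sites, from the M2 list, had a median of 4.43.

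The share of peaks without an M2 partner fell steeply with strength, so that nearly every strong M1 start-site peak was shared. Among M1 start-site peaks with a −log10 q under 3, 335 of 626 (53.5%) were members. The share was 27.2% (322 of 1184) from 3 to 5, 14.6% (140 of 961) from 5 to 7 and 7.17% (82 of 1143) from 7 to 10. It was 2.33% (30 of 1289) from 10 to 15, and 4 of 863 and 4 of 958 in the bins from 15 to 20 and from 20 to 30. None of the 1216 peaks at 30 or more was a member. The M2 list gave the same pattern in reverse, from 64.7% of its start-site peaks under 3 to 0.285% between 20 and 30. With 1 library per state and no read depth in the peak lists, no test between the states was possible, and a region absent from the M2 list may have held signal under the caller's threshold.

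**Figure D1:**
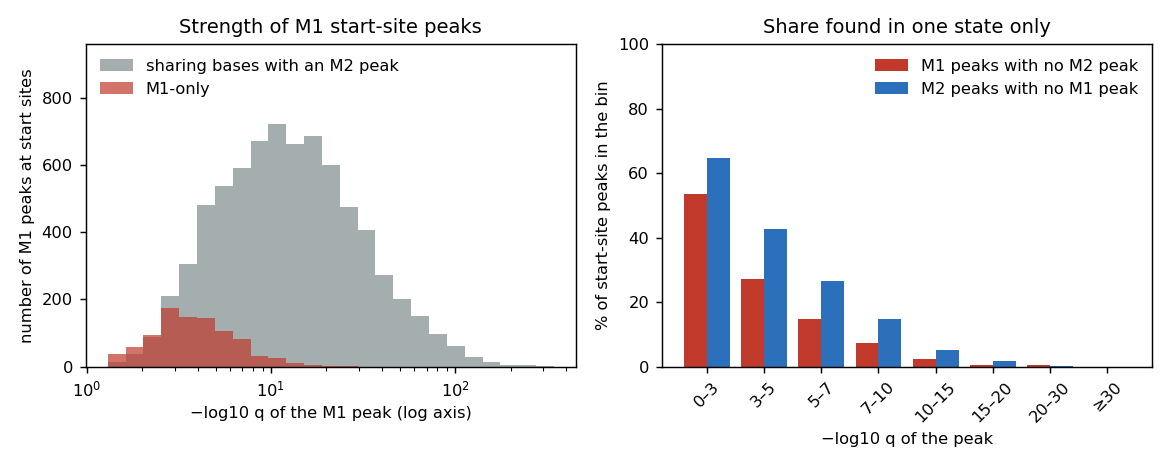
Left, number of M1 start-site peaks by −log10 q (log axis) for M1-only peaks (red) and peaks sharing bases with an M2 peak (grey), with the few shared peaks beyond the axis not drawn. Right, percent of start-site peaks in each −log10 q bin with no peak in the other state, for the M1 list (red) and the M2 list (blue). The M1-only share drops from 53.5% in the weakest bin to 0 of 1216 peaks in the strongest.

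Most members stood well away from any M2 peak, but some lay beside one. The median distance from a member to the nearest M2 peak was 11051 bp, and 479 members (52.2%) had none within 10000 bp. At the other end, 146 members (15.9%) had an M2 peak within 500 bp of their ends and 40 within 100 bp, the closest at 3 bp.

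Member summits were spread more widely around the start than shared ones and lay more often inside the gene. The nearest start lay at a median of 186 bp from the summit in members and 112 bp in shared peaks. In members 33.4% of summits lay within 100 bp of the start and 58.9% within 250 bp, against 46.2% and 77.1% in shared peaks. The summit lay downstream of the start, in the direction of transcription, in 582 members (63.5%) and upstream in 332 (36.2%). Shared peaks were divided evenly, with 50.7% downstream and 49.1% upstream. At the 1000 bp limit, the last members inside were those at Tmtc2 (989 bp), Lacc1 (992 bp) and Gm17382 (999 bp), and the first M1-only peaks outside were those at Gm37879 (1004 bp), Dsp (1009 bp) and Med25 (1012 bp).

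**Figure D2:**
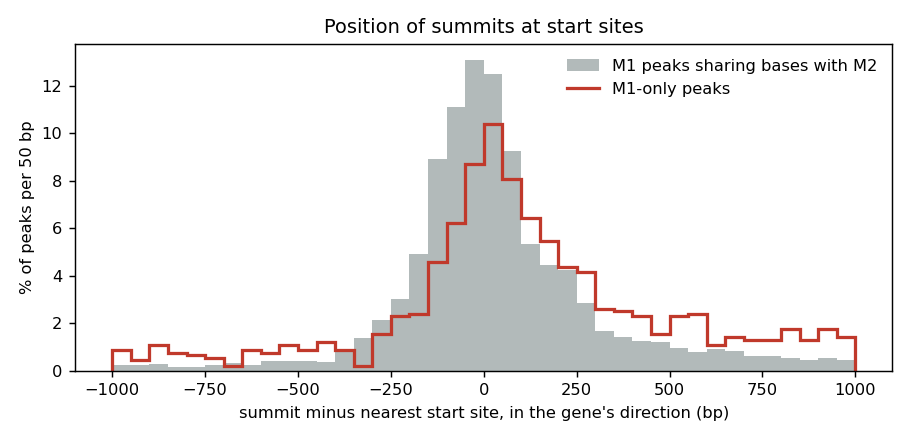
Percent of peaks per 50 bp by the distance of the summit from the nearest start site, with positive values downstream in the direction of transcription, for M1-only peaks (red line) and M1 peaks sharing bases with an M2 peak (grey). The M1-only summits are less concentrated at the start, with 33.4% against 46.2% within 100 bp, and more of them lie downstream.

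Several of the strongest members lay on the start itself. The strongest was at Dvl2, a relay of Wnt signalling, with a −log10 q of 29.0, a fold enrichment of 6.79 and a position of chr11:70000454-70000790. The peak at Ptprs, a receptor protein tyrosine phosphatase, had a −log10 q of 23.6 at chr17:56476339-56476620. The third, at chr5:114922981-114923488 with a −log10 q of 23.3, had its summit 4 bp upstream of Oasl1, an interferon-induced relative of the oligoadenylate synthetases, and covered the start of the antisense gene Gm13822. An M2 peak lay 402 bp from it. The peak with the highest fold enrichment of all members, 13.0, stood where the starts of Mfsd8, Abhd18 and the pseudogene Gm2011 meet, at chr3:40846743-40847205, and its −log10 q was 20.6. Mfsd8 encodes a lysosomal membrane protein. The next 6 were at Akr1c18, a progesterone-degrading dehydrogenase (17.3), the phospholipid flippase Atp8b3 (16.8), the cyclic AMP phosphodiesterase Pde7a (16.7), the glutathione transferase Gstk1 (15.5), the inflammasome sensor Nlrp1b (14.4) and the transcription factor Grhl1 (14.3). The 3 weakest members were at P2rx5 (1.37), Gm22442 (1.33) and Clasp2 (1.31).

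Of the 917 members, 813 had 1 gene start within 1000 bp, 100 had 2 and 4 had 3. In 94 of the 104 members with more than 1 start, the genes lay on both strands. The 1004 member genes included 837 protein-coding genes, 54 antisense genes and 35 long intergenic RNAs.

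Macrophages in which Ets1 had been targeted were then compared with controls at these genes. Ets1 itself had 3641, 3337 and 2869 normalized counts in the control libraries and 825, 755 and 645 in the knockouts, a fall of 2.15 on the log2 scale (SE 0.11, limma adjusted p = 3.93e-07). A normalized count is the number of reads on a gene divided by a size factor for its library, and the libraries held 16897873 to 20259175 reads on genes. The 2 readouts differ in state, since the peaks came from polarised wild type cells and the RNA from cells with no polarisation named.

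Member genes changed in knockouts in both directions, close to the rate of all genes. Of the 1004, 961 reached a group mean of 1 and entered the test, and 43 did not. A gene was called changed at an adjusted p under 0.05 by limma on log2(normalized count + 1). Higher levels in knockouts were called for 122 member genes (12.7%), where 10.4% of all 20595 tested genes were higher. Lower levels were called for 123 (12.8%), where 10.5% of all tested genes were lower. The median log2 fold change was 0.004 in member genes and -0.035 in all tested genes. Members stood above the general level of expression, with a median of 43.2 normalized counts per kb of gene length in controls against 15.9 over all genes. Among genes with a mean of at least 100 over the 6 libraries, a cut chosen after the data had been seen, 113 of 585 members (19.3%) were higher beside 20.1% of all genes, and 76 (13.0%) were lower beside 12.0%. Both shares at that level were near the background. A call with a change of at least 1 on the log2 scale was made for 9 member genes that rose (0.937%) and 54 that fell (5.62%), near the 1.05% and 5.37% of all tested genes.

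The counts of calls depended on single libraries, in members as in all genes. The higher and lower calls numbered 63 and 66 without control library 2, 58 and 84 without knockout library 1, 56 and 76 without knockout library 2, and 76 and 90 without knockout library 3. They numbered 165 and 149 when control library 1 was left out. Over all tested genes the counts went from 2142 and 2156 to 959 and 1070 without control library 2, and to 2976 and 2740 when control library 1 was left out. Scaling to total reads moved the fold change of all genes by a median of -0.132 on the log2 scale and changed the split to 81 higher and 178 lower, so that 31.3% of the member calls were higher in place of 49.8%. Over all tested genes the share of calls that were higher went from 49.8% to 26.7%.

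**Figure D3:**
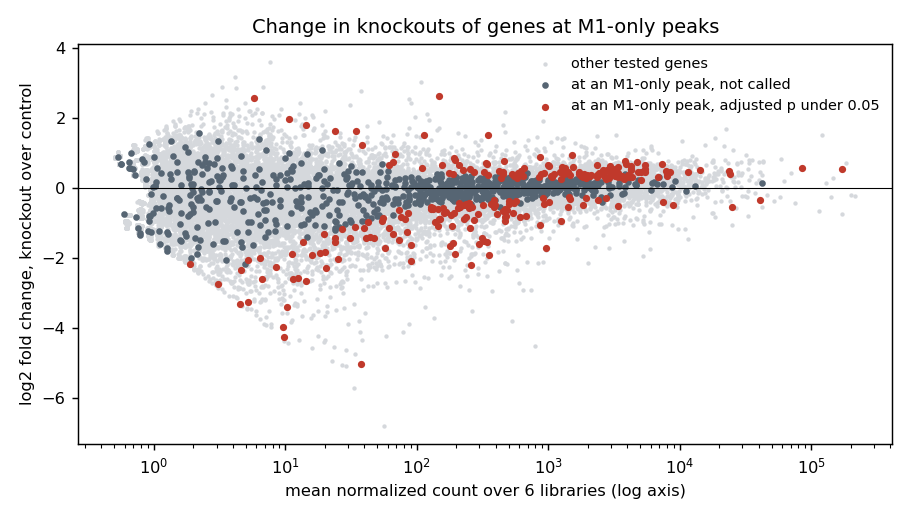
Log2 fold change of knockout over control against the mean normalized count over 6 libraries (log axis) for all 20595 tested genes (light grey), member genes not called (dark grey) and member genes with an adjusted p under 0.05 (red). The 122 higher and 123 lower member genes lie among the other genes at every level, and falls of at least 1 on the log2 scale outnumber rises among the members (54 and 9) as among all tested genes (1106 and 216).

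Member genes with no M2 peak at their start and those with an M2 peak elsewhere at the start had different levels. The first group had 795 genes with a median control level of 36.8 normalized counts per kb, near the 36.9 of genes with an M2-only peak. The second had 209 genes with a median of 96.0, near the 103 of the 8573 genes with shared M1 peaks alone. The 12604 genes with no peak at the start had a median of 2.97. Of the called genes named below, Oasl1, Adar, Tlr9 and Lilra6 were in the second group. So were the uncalled Gm13822, Zbp1, Il23a, Grn, Arid2, Chd7, Dhx9, Ino80, Eif1ad, Atp5c1, Ube2d2a, Ctxn1 and Slfn10-ps. Of all tested genes, 10.4% were higher in knockouts and 10.5% lower. In the first group 83 of 755 tested genes (11.0%) were higher in knockouts and 107 (14.2%) lower. The shares were 11.3% and 15.3% of genes with an M2-only peak and no M1 peak. In the second group 39 of 206 (18.9%) were higher and 16 (7.77%) lower, beside 16.3% and 8.40% of genes with shared peaks. Differences between these shares were not tested.

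Stronger member peaks did not stand at genes with more calls in any steady order. Of all tested genes, 10.4% were higher and 10.5% lower. Among genes whose member peak had a −log10 q under 3, 39 of 342 tested were higher (11.4%) and 48 lower (14.0%). From 3 to 5 the counts were 40 (11.9%) and 51 (15.2%) of 335, and from 5 to 10 they were 39 (16.1%) and 18 (7.44%) of 242. At 10 or more, 4 of 42 were higher (9.52%) and 6 lower (14.3%). The median control level differed between these bins, at 28.3, 43.0, 66.0 and 47.1 normalized counts per kb. Its part in the shares was not tested.

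Among the genes at the 10 strongest peaks, Dvl2 and Oasl1 fell in knockouts and Ptprs and Pde7a rose. Dvl2 had 427, 487 and 456 normalized counts in controls and 345, 359 and 291 in knockouts, 1.38-fold lower (log2 fold change -0.46, SE 0.11, adjusted p = 0.0112). All 3 knockouts lay under the lowest control. The call was lost without control library 2 (adjusted p = 0.0784) and without knockout library 3 (0.0646). Ptprs had 2132, 1610 and 1623 in controls and 2492, 2134 and 2241 in knockouts (adjusted p = 0.0318), and the lowest knockout stood just above the highest control. Pde7a had 528, 539.7 and 509 in controls and 633, 623 and 663 in knockouts (adjusted p = 0.0340), with a clear gap between the groups. Both rises were small, at 1.28-fold and 1.22-fold, and both calls were lost in 5 of the 6 fits that left out 1 library, all but the one without control library 1 (adjusted p from 0.0860 to 0.178 for Ptprs and from 0.0565 to 0.128 for Pde7a). They were also lost with scaling to total reads (0.119 and 0.243), and that of Pde7a with edgeR (0.0688). At the peak with the highest fold enrichment, Mfsd8 had 206, 254 and 217 in controls and 261, 268 and 268 in knockouts (adjusted p = 0.183). Abhd18, Gm2011, Akr1c18, Atp8b3, Gstk1, Nlrp1b, Grhl1 and Gm13822 were not called either, with overlapping groups and adjusted p from 0.145 to 0.726. Akr1c18 was called lower when control library 1 was left out (0.0312) and Gm13822 when knockout library 2 was (0.0497).

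Interferon-response genes made up 7 of the members. The list held 45 genes, so 15.6% of it lay at a member peak, beside 4.30% of all genes in the table, while 26 had a shared M1 peak. Only 9 of the 45 had no peak at the start, as did 12604 of the 23346 genes in the table. The difference in share was not tested. Oasl1 had 477, 659 and 717 normalized counts in controls and 319, 338 and 301 in knockouts, 1.94-fold lower (log2 fold change -0.93, SE 0.14, adjusted p = 6.03e-04). Every knockout lay under every control, and the knockouts were close together. Its antisense neighbour Gm13822 starts at the same peak, and the pair overlap only between positions 114923240 and 114923277. Without a stated strand setting, reads inside that short stretch cannot be told apart. Gm13822 had 14 reads over the controls and 4 over the knockouts, so few of the reads were assigned to it.

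The RNA sensor Ddx58 (RIG-I) and the RNA editor Adar rose. Ddx58 had 3650, 3480 and 3448 in controls and 4726, 4631 and 4455 in knockouts, 1.31-fold higher (log2 fold change 0.38, SE 0.07, adjusted p = 0.00224). Its peak had a −log10 q of 2.29 and lay 767 bp upstream of the start. Adar had 2597, 2637 and 2522 in controls and 3350, 3161 and 3018 in knockouts, 1.23-fold higher (adjusted p = 0.0122). An M2 peak lay 143 bp from the Adar peak. Groups did not overlap for either gene. The Adar call was lost without control library 2 (0.0572), without knockout library 1 (0.0783), without knockout library 2 (0.0690) and with scaling to total reads (0.107).

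The other interferon-list members were the GTPase Gbp3, the oligoadenylate synthetase Oas1a, the nucleic acid sensor Zbp1 and Ifit1, which binds foreign RNA. None was called, with adjusted p from 0.164 to 0.842, but with control library 1 left out Gbp3 (0.0441) and Zbp1 (0.0207) were called lower. Gbp3 had the second-strongest peak of the list (11.7) and 327, 354 and 487 normalized counts in controls against 344, 306 and 282 in knockouts. These groups overlapped, as did those of Oas1a, Zbp1 and Ifit1. An M2 peak lay 508 bp from the Zbp1 peak. Over the whole list of 45 genes, 8 were higher and 10 lower in knockouts, where 10.4% and 10.5% of all tested genes were.

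**Figure D4:**
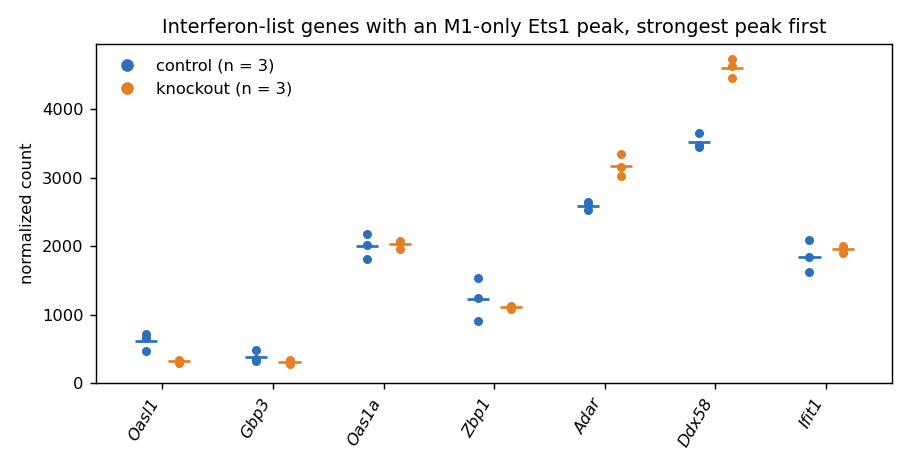
Normalized counts of the 7 interferon-list genes with an M1-only Ets1 peak in 3 control (blue) and 3 knockout (orange) libraries, ordered by the strength of the peak, with a line at each mean. Oasl1 is lower in all 3 knockouts, Adar and Ddx58 are higher in all 3, and the other 4 genes overlap between groups.

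Toll-like receptor and NF-kB genes included 3 members, 6.00% of their list beside 4.30% of all genes in the table. Tlr9, the endosomal receptor for CpG DNA, had 3346, 3059 and 2583 normalized counts in controls and 4984, 4654 and 4750 in knockouts, 1.60-fold higher (log2 fold change 0.69, SE 0.09, adjusted p = 3.10e-04). Tnip1, an inhibitor of NF-kB signalling, had 3587, 3512 and 3262 in controls and 5106, 5158 and 4921 in knockouts, 1.47-fold higher (log2 fold change 0.55, SE 0.07, adjusted p = 2.19e-04). For both, all knockouts lay well above all controls. Ikbkb, the kinase that releases NF-kB, had means of 2197 ± 117 and 2137 ± 45.9 (SD, n = 3) and was not called (adjusted p = 0.745). Of the list's 50 genes, 21 were higher in knockouts and 5 lower. Among genes with a mean of at least 100, 20.1% were higher and 12.0% lower, and over all tested genes 10.4% and 10.5%. A shared M1 peak and no member peak stood at 35 of the 50, beside 8573 of the 23346 genes in the table. These differences were not tested. The Tlr9 start also had a shared M1 peak and an M2 peak, and the Tnip1 start had neither.

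Members made up 6.90% of the classical activation list and 4.55% of the alternative activation list, beside 4.30% of all genes in the table. Of 29 measured genes of classical activation, the members were the costimulatory ligand Cd86 and the cytokine subunit Il23a. Cd86 had 348, 400.1 and 286 normalized counts in controls and 257, 282 and 281 in knockouts (adjusted p = 0.103). The knockouts lay just under the lowest control, and without control library 3 the adjusted p was 0.0196. Il23a had 2 member peaks but only 5 reads over the controls and 1 over the knockouts. The stronger of its peaks lay 89 bp from an M2 peak. The 1 member of 22 measured genes of alternative activation was Il4ra, the receptor chain for interleukin 4 and interleukin 13, with 8495 ± 833 in controls and 9843 ± 73.9 in knockouts (SD, n = 3). Its adjusted p was 0.0817, and 0.00492 without control library 1.

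In the lists of DNA damage and of cell cycle genes, 2 of 3 members each were called, all higher. Of all tested genes with a mean of at least 100, 20.1% were called higher and 12.0% lower. With 3 members to a list, these counts are too small to set against those shares. Parp1, which builds poly(ADP-ribose) chains at DNA breaks, had 3020, 2820 and 2469 normalized counts in controls and 3989, 3816 and 3720 in knockouts, 1.39-fold higher (log2 fold change 0.48, SE 0.08, adjusted p = 0.00197). The DNA-break adaptor Trp53bp1 was 1.32-fold higher (adjusted p = 0.00836), and Fancd2 was not called (0.401). All knockouts exceeded all controls for Parp1 and Trp53bp1. These 3 were the members of a list of 63 DNA damage and telomere genes, of which 7 were higher and 1 lower. The cell cycle list held 71 genes, of which 10 were higher and 9 lower. Among its members, the phosphatase Cdc25b was 1.42-fold higher (adjusted p = 0.0114) and Anapc1 of the anaphase-promoting complex was 1.24-fold higher (0.0314). The checkpoint kinase Bub1b was not called (0.297, and 0.0304 when control library 1 was left out). The Trp53bp1 call was lost without control library 2 (0.0601), without knockout library 1 (0.0584) and without knockout library 2 (0.0609). The Cdc25b call was lost without the same 3 libraries (0.0630, 0.0726 and 0.0544). The Anapc1 call was lost when any library other than control library 1 was left out (0.0612 to 0.142), and with scaling to total reads (0.128).

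In the remaining lists 4 members were called, Cflar, Utp20, Polr2l and Cox10, the last of which is described with its antisense neighbour. Cflar, an inhibitor of death-receptor signalling and the 1 apoptosis member, had 4588, 4511 and 3647 normalized counts in controls and 6049, 5799 and 5701 in knockouts, 1.38-fold higher (log2 fold change 0.47, SE 0.09, adjusted p = 0.00358). Every knockout lay above every control. Utp20, a ribosome assembly factor, was 1.39-fold higher (adjusted p = 0.0149), a call lost when control library 2 or any knockout library was left out (0.0592 to 0.0926). Polr2l, a subunit shared by RNA polymerases, was 1.95-fold lower (0.0347), with 118, 181 and 292 in controls and 82.7, 107 and 113 in knockouts. Its lowest control stood just above its highest knockout, and the call was lost when any library other than control library 1 was left out (0.0860 to 0.169).

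The other members of the chromatin and transcription list, Arid2, Chd7, Gtf2h2, Ino80 and Taf7, were not called. Neither were those of the ubiquitin and proteasome list (Psmd7, Ube2a, Ube2d1 and Ube2d2a), of splicing (Dhx9 and Sf3b6) and of the ETS family (Elk3). The same held for Eif1ad of the translation list and for Atp5c1 and Ndufb7 of the mitochondrial list. With scaling to total reads, 5 of these genes were called lower, namely Eif1ad (0.0292), Atp5c1 (0.0314), Ndufb7 (0.0461), Elk3 (0.0195) and Ube2d1 (0.0380). When control library 1 was left out, Eif1ad (0.0477), Atp5c1 (0.0160), Ndufb7 (0.0157) and Ube2d1 (0.0266) were called lower. None of the 50 genes of phagocytosis, endocytosis and lysosome was a member.

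On the fitted log2(normalized count + 1) scale, the largest rise was at Igf2bp3, an RNA-binding protein best known from fetal tissues. It had 33.5, 47.2 and 38.5 normalized counts in controls and 284, 255 and 220.2 in knockouts, 6.37-fold higher (log2 fold change 2.65, SE 0.19, adjusted p = 2.66e-06). Its peak had a −log10 q of 7.82 and a summit 602 bp upstream of the start. Myrf, a membrane-tethered transcription factor of myelin-forming cells, had 242, 196 and 117 in controls and 535, 514 and 473 in knockouts, 2.75-fold higher (log2 fold change 1.51, SE 0.21, adjusted p = 3.31e-04). Both genes had all knockouts far above all controls. Gm14548, whose promoter is shown above, had 43.2, 82.6 and 52.6 in controls and 177, 172 and 152 in knockouts (2.81-fold, adjusted p = 5.73e-04). Lilra6, which starts farther along the same chromosome and encodes a leukocyte immunoglobulin-like receptor, had 33.5, 67.8 and 38.5 in controls and 90.3, 103 and 76.0 in knockouts (1.93-fold, adjusted p = 0.0210). The Lilra6 peak lay 24 bp from an M2 peak. The Lilra6 call was lost without control library 3 (0.0626) and without any of the knockout libraries (0.0516 to 0.120). Groups were separate for both, but receptor genes of this region resemble each other, so the assignment of reads between them is uncertain.

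The remaining large rises were at genes with few reads. Ccser1 rose from 16.1 ± 1.83 to 52.6 ± 5.42 normalized counts (adjusted p = 0.00154), and the calcium channel subunit Cacna1b from 11.4 ± 4.20 to 36.6 ± 6.83 (0.00759), with SD and n = 3. The calcium-binding protein S100a4 rose from 23.5 ± 12.1 to 52.8 ± 4.37 (0.0223), the unconfirmed transcript AC124681.1 from 6.34 ± 3.91 to 22.4 ± 2.13 (0.0149), and the clotting factor gene F9 from 4.15 ± 3.04 to 17.2 ± 6.94 (0.0337). Fgf22, a fibroblast growth factor, had 3 reads over the controls and 30 over the knockouts (0.0120). For these 6 genes every knockout was above every control. Several calls rested on single libraries. Without knockout library 2 the adjusted p was 0.0575 for Cacna1b, 0.0767 for AC124681.1, 0.0927 for S100a4 and 0.127 for F9. Without knockout library 1 it was 0.0734 for Fgf22, 0.0651 for AC124681.1, 0.103 for S100a4 and 0.151 for F9. Without knockout library 3 it was 0.0504 for AC124681.1, 0.0732 for S100a4 and 0.0548 for F9. Leaving out control library 2 gave 0.0645 for Fgf22 and 0.108 for S100a4, leaving out control library 3 gave 0.0590 for S100a4 and 0.0512 for F9, and leaving out control library 1 gave 0.0760 for F9.

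The largest falls were at genes with low levels in controls and almost no reads in knockouts. Prss34, a serine protease of mast cells and basophils, had 44.0, 103 and 73.3 normalized counts in controls and 2.18, 0 and 2.24 in knockouts (log2 fold change -5.02, SE 0.54, adjusted p = 5.60e-05). Dtx1, a regulator of Notch signalling, had 12.3, 16.7 and 29.1 in controls and no read in any knockout, at least 18.3-fold lower if the floor is put at 3 reads in all knockouts (adjusted p = 2.22e-04). Knockouts also had no read of the Wnt antagonist Sfrp2 (at least 9.87-fold lower, adjusted p = 0.00498), the pseudogene Gm15433 (at least 8.48-fold, 0.00132) and the ATP-gated channel P2rx5 (at least 5.85-fold, 0.00774). Control and knockout libraries were fully separate at each of these 5 genes. That adds no support, since the 10 largest falls were picked from genes called on the same libraries.

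In Nrep there were 61 reads over the controls and 1 over the knockouts (adjusted p = 3.54e-04), and in the guanylate cyclase subunit Gucy1b1 there were 63 and 3 (0.00144). The nuclear receptor Nr2f1 had 22.0, 25.6 and 28.2 normalized counts in controls and 1.09, 6.81 and 3.35 in knockouts (0.00374). Epb41l4a had 38 reads over the controls and 4 over the knockouts (0.0106), and its call was lost without control library 2 (0.0600). The peaks at these 9 genes had a −log10 q of at most 3.68.

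The antisense gene 2810001G20Rik had 15.9, 16.7 and 29.1 normalized counts in controls and 2.18, 1.95 and 3.35 in knockouts (8.25-fold lower, adjusted p = 0.00246). It shares its peak with Cox10, an enzyme of heme A synthesis that starts on the other strand and had 312, 265 and 242 in controls and 417, 357 and 361 in knockouts (1.38-fold higher, adjusted p = 0.0166). The groups were separate for both genes. Of the 104 members with 2 or 3 starts this was the 1 with genes called in opposite directions. Another 6 had genes called in the same direction, and 2 of these peaks stand at the same genes, Mrps6 and Slc5a3. Among the rest, 32 had 1 called gene and 65 had none. The Cox10 call was lost without control library 2 (0.0859), without any of the knockout libraries (0.0545 to 0.0979) and with scaling to total reads (0.0559).

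**Figure D5:**
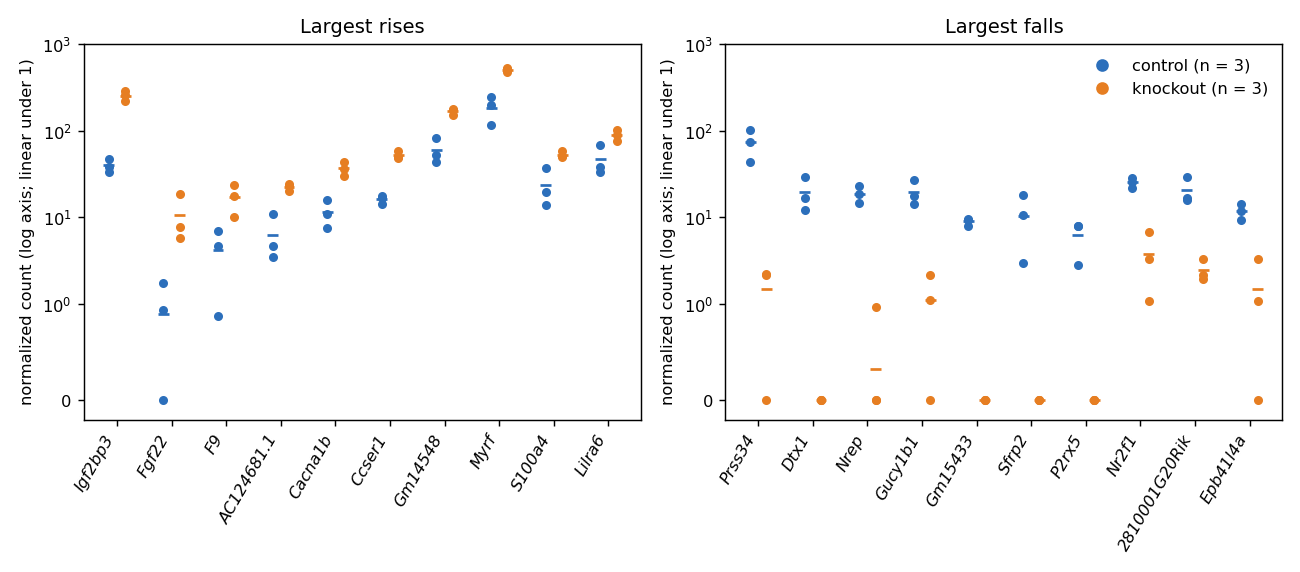
Normalized counts (log axis, linear under 1) of the 10 member genes with the largest called rises (left) and falls (right) in 3 control (blue) and 3 knockout (orange) libraries, with a line at each mean. Igf2bp3, Myrf and Gm14548 lie above 100 normalized counts in all 3 knockouts, and Dtx1, Gm15433, Sfrp2 and P2rx5 are at 0 in all 3 knockouts.

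Markers of several other cell types fell in the same libraries, in which 10.5% of all tested genes were called lower. The summed level of 5 mast cell and basophil markers, Prss34 among them, was 158 to 229 normalized counts in controls and 29.4 to 42.5 in knockouts, and 3 of the 5 were called lower. All 5 stromal markers were called lower, with sums of 10124 to 14981 and 3343 to 4057. Of 6 neutrophil markers 5 were called lower, with sums of 13257 to 15378 and 7754 to 8307. One of these, the antimicrobial peptide gene Camp, was a member gene and had 334, 525 and 499 in controls and 139, 164 and 135 in knockouts (adjusted p = 4.20e-05), with every knockout under every control. All 3 measured megakaryocyte markers were also called lower, with sums of 2830 to 4776 and 1053 to 1242. Lower calls were made for 3 of 4 endothelial markers (sums of 985 to 1239 and 786 to 969), 1 of 2 erythroid markers and 3 of 5 B cell markers, whose sums overlapped (3326 to 3992 and 3194 to 3421). None of the 3 tested T and NK cell markers was called. No marker of these lists was at 0 in all libraries. Their part in the falls of the member genes was not tested, and in bulk RNA fewer cells of a type and less RNA per cell cannot be told apart.

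The macrophage marker list held 9 genes, of which 2 were called higher and 2 lower in knockouts, with a median log2 fold change of -0.09. Its sums were 295471 to 300922 normalized counts in controls and 371949 to 387250 in knockouts. Its 3 member genes, Lyz2, Adgre1 and Csf1r, stood among the most highly expressed members. So did C1qb and Grn, which were not on the list. Per kb of gene length, control levels were 105084 normalized counts for the lysozyme gene Lyz2, 27220 for the complement subunit C1qb, 21103 for Adgre1 (F4/80), 11492 for the granulin precursor Grn and 9394 for Csf1r, the M-CSF receptor. Lyz2 had 128113, 134916 and 151844 normalized counts in controls and 197594, 199664 and 212763 in knockouts (1.47-fold higher, adjusted p = 0.00414), and Cre in the knockouts is driven from this locus. Adgre1 had 76999, 68560 and 59435 in controls and 102183, 100799 and 102634 in knockouts (1.49-fold higher, adjusted p = 0.00281). In both, every knockout exceeded every control.

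C1qb and Csf1r went the other way. C1qb had 24152, 29896 and 34798 normalized counts in controls and 19352, 21077 and 20247 in knockouts (1.46-fold lower, adjusted p = 0.00668). Csf1r had 49028, 46155 and 42480 in controls and 35742, 36412 and 36155 in knockouts (1.27-fold lower, adjusted p = 0.0149). All controls lay above all knockouts for both genes, while Grn differed by 1.10-fold and was not called (0.255). The peaks at these 5 genes had a −log10 q from 1.98 at Lyz2 to 6.97 at Grn. The Grn start also had a shared M1 peak and an M2 peak. Without control library 2 the adjusted p was 0.0550 for Lyz2, 0.0631 for C1qb and 0.0930 for Csf1r. Without knockout library 1 and without knockout library 2 it was 0.0608 and 0.0514 for C1qb and 0.0844 and 0.0898 for Csf1r, and without knockout library 3 it was 0.0778 for Csf1r.

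There were 21 genes with 2 member peaks at their start, all tested, of which 4 were called higher and 2 lower. Of all tested genes, 10.4% were higher and 10.5% lower. Fhl3, a LIM-domain protein, had 2084, 1873 and 1561 normalized counts in controls and 2905, 2903 and 2835 in knockouts, 1.57-fold higher (log2 fold change 0.66, SE 0.10, adjusted p = 5.89e-04). The receptor phosphatase Ptprj had 12735, 12342 and 10186 in controls and 17249, 16627 and 16169 in knockouts, 1.42-fold higher (adjusted p = 0.00222). Knockouts exceeded controls in every library for both. Flot2 and Clasp2 were 1.31-fold higher each (0.00799 and 0.0400), and the Clasp2 groups overlapped. Flot2 lost its call without control library 2 (0.0591), knockout library 1 (0.0628) or knockout library 2 (0.0533), and Clasp2 when any library other than control library 1 was left out (0.0820 to 0.179) and with scaling to total reads (0.112).

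Mrps6, Slc5a3 and AC144408.3 start close together on the same strand and share both of their peaks. Slc5a3 lies within the span of Mrps6, so the assignment of reads where they overlap is uncertain. Their calls may not be independent. Mrps6, a mitochondrial ribosomal protein, was 2.31-fold lower (adjusted p = 0.00917), and Slc5a3, an inositol transporter, was 1.36-fold lower (0.0201). Both calls were lost without knockout library 2 (0.0571 and 0.0986) and that of Slc5a3 also without knockout library 3 (0.0992). The other 15 genes with 2 member peaks were not called. Some of these passed in other fits. With control library 1 left out the adjusted p was 0.00321 for Iqgap3, 0.0276 for Map2k4, 0.0378 for Npm3, 0.0410 for Slfn10-ps and 0.0468 for Ctxn1. DESeq2 gave 0.0468 for Iqgap3, and edgeR gave 0.0323 for Ctxn1.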

How the data were processed

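Peaks were used as deposited, on build mm10. The authors' peak lists give 4 values for each peak: a score (10 times the −log10 q), the fold enrichment as a ratio to background, and −log10 p and −log10 q. Gene starts came from the deposited expression table, whose values are normalized counts, a signal that the authors had made by dividing reads by 1 size factor per library. All values were whole multiples of the value of 1 read (100.0% within 0.001), so reads were recovered for the alternatives. The log2 fold change and p-value columns that the authors deposited were not used.

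HTSeq 0.6.0, HISAT2 2.1.0 and Bowtie2 2.2.3 are named for RNA in the submitters' processing notes, and for ChIP these name MACS2, BWA, DESeq2, SAMtools and deepTools. The sources used here do not state the input control, the peak threshold, the strand setting or the agents of polarisation. ChIP depth is unknown.

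Knockouts were compared with controls with limma 3.58.1 (trend, R 4.3.3) on log2(value + 1) over all genes whose mean reached 1 in a group, with Benjamini-Hochberg adjustment. The fold changes fitted on that scale understate the change of genes with low counts, and printed fold values are ratios of group means. The design had assumed counts and edgeR's quasi-likelihood test. edgeR 4.0.16 and DESeq2 1.42.0 on the recovered reads served as alternatives. The procedure was tested on simulated data. ETS cores were searched in RefSeq promoter sequences of GRCm38.p6, from 250 bases before to 50 after each start, since no genome was used here.

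Genes named are those at the 10 strongest and 3 weakest peaks, the 10 largest called rises and falls, the 5 highest control levels, members of the function and marker lists, and genes with 2 member peaks. Peaks and gene lists were chosen with earlier results of these data known. In 25 symbols that had been stored as dates, the symbol was restored from the gene identifier.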

Additional observations from a re-analysis of the deposited data

How the results depend on the processing

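The number of M1-only start-site peaks was within 1.5 times of 917 when the distance limit, the overlap rule or the edge of the peak was varied, and fell to 260 with a −log10 q of at least 5, where the median −log10 q was 6.87. The median log2 fold change of member genes was 0.037 with that threshold, -0.016 with a 2000 bp limit, -0.017 with no M2 peak within 500 bp, 0.062 at a mean of at least 100, -0.037 with edgeR, -0.130 with scaling to total reads, and -0.016 to -0.001 with 1 library left out. Higher calls numbered 81 with scaling to total reads and 56 to 165 with 1 library left out, and lower calls 66 to 149. At a mean of at least 100 the lower calls were 76. The cause was not tested.

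Same-numbered libraries had correlated deviations of 0.022, 0.023 and 0.031 only, so the numbers were not taken as pairing, although each library correlated best with its own number. With the number as a replicate block, calls were 146 higher and 148 lower, and Iqgap3 (9.44e-04), Ube2d1 (0.0210), Il4ra (0.0383) and Map2k4 (0.0399) passed. With 100 bases on each side of the summit, 91 member windows could be read and 40 of them (44.0%) held the core. The share was 49.0% at shared start-site peaks, 43.4% at M2-only start-site peaks and 24.1% in all RefSeq promoters. With 25 bases, 25 of 214 readable member windows (11.7%) held it, beside 14.5%, 13.7% and 9.77%. Of the 173 member windows described above, 5 (2.89%) held the longer CCGGAAGT.

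Uncalled genes changed sign as follows. Scaling to total reads gave -0.01 for Arid2, -0.08 for Cyp4f17 and Dhx9, -0.04 for Ifit1 and -0.11 for Oas1a, and edgeR gave -0.01 for Oas1a. With 1 library left out, log2 fold changes ran from -0.11 to 0.25 for Cyp4f17, -0.01 to 0.46 for Gm2011, -0.36 to 0.19 for Gtf2h2, -0.00 to 0.18 for Ifit1, -0.07 to 0.00 for Ikbkb, -0.04 to 0.09 for Oas1a, -0.61 to 0.24 for Olfr756-ps1, -0.04 to 0.01 for Psmd7, -0.26 to 0.07 for Sf3b6, -0.32 to 0.06 for Zbp1 and -0.02 to 0.84 for Zfp819.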
